A study of Mus musculus with 6 samples.

Results

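The osteocalcin paralogs of the mouse, Bglap, Bglap2 and Bglap3, were followed in MC3T3-E1 cells, a preosteoblast line from mouse calvaria, before and after osteogenic differentiation. Every row of the array files whose transcript accession belonged to one of these genes was taken. That gave 3 probe sets, 1 for each gene, of 42586 probe sets tested, and 3 genes of 17331 with a symbol. The undifferentiated group held 3 samples of MC3T3-E1 cells, and no osteogenic supplement is stated for it. The differentiated group held 3 samples grown for 15 days with 10 mM glycerol-2-phosphate and 50 µg/mL ascorbic acid, which serve as a phosphate source and a cofactor of collagen synthesis. All 6 samples came from passages 5 to 12, had 10% heat-inactivated serum and had received ethanol vehicle for 24 h. Per the labels the triplicates were biological. The samples come from 1 cell line in culture, without the other cells of bone, and the supplements and the time in culture came with differentiation, so these cannot be told apart.

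Osteocalcin is a small protein that mature osteoblasts secrete into bone matrix. A vitamin K-dependent carboxylase turns some of its glutamates into Gla residues, which bind calcium and the surface of bone mineral. It is the classical late marker of the osteoblast, and its gene is a textbook target of the transcription factor RUNX2. The mouse carries a cluster of related genes, in which Bglap and Bglap2 are the bone genes, while Bglap3 is known for expression in kidney and other tissues outside bone.

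All 3 paralogs were higher after differentiation, and no undifferentiated array reached the level of any differentiated array. Bglap rose 1.75-fold, Bglap2 1.71-fold and Bglap3 1.47-fold. The call for Bglap3 was the least secure, since it was lost when differentiated replicate 1 or 3 was left out. In bulk RNA, more cells that express osteocalcin and more osteocalcin mRNA per cell cannot be told apart.

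The 3 genes lie next to each other on chromosome 3 of the mouse, on the minus strand where a promoter window gives it. The RefSeq promoter table (build GRCm38.p6) held 1 window for Bglap and 3 for Bglap3, which has 4 transcripts in the gene table. They are shown because the study concerned RUNX2, whose binding data were not analysed here, and because the paralogs moved together. Each sequence below is the 250 bases before a transcript start, 5′ to 3′ on the minus strand. In the Bglap window (chr3:88384467-88384716) capitals mark the RUNX core ACCACA and the TATA box TATAAA. In the Bglap3 windows, the upstream one (chr3:88372742-88372991) and the downstream one (chr3:88369832-88370081) of those shown, capitals mark a stretch that both share.
Bglap: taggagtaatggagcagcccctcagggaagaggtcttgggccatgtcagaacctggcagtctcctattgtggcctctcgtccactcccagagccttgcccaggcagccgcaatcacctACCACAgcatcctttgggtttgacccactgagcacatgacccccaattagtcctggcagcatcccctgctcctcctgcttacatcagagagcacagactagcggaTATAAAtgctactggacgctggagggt
Bglap3 upstream window: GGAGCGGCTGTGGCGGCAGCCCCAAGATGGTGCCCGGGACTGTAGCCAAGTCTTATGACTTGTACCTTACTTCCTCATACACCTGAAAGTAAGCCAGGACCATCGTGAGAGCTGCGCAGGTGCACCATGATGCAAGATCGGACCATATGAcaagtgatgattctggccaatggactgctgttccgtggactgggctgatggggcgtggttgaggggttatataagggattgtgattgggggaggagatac
Bglap3 downstream window: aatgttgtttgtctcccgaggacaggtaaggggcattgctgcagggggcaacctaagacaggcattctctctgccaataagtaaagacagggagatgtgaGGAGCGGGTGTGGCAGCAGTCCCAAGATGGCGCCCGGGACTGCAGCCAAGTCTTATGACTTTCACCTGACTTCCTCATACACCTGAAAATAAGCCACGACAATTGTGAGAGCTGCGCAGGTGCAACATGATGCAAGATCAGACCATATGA

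The Bglap window held 1 ACCACA at positions -132 to -127 and 1 TATAAA at -27 to -22, counted backwards from the transcript start at -1. On either strand (ACCACA or TGTGGT), 14.0% of 32851 windows of the same length in the table held the RUNX core, and 12.4% held TATAAA or TTTATA. None of the 3 windows of Bglap3 held these exact letters. Variants of them were not searched, such as the TATA-like tatataag near the end of the Bglap3 upstream window. The search therefore does not show that Bglap3 lacks a TATA box. The E-box CANNTG, bound by basic helix-loop-helix factors, occurred in all 4 windows and in 66.2% of windows in the table. The upstream and downstream windows of Bglap3 shared a stretch of 150 aligned bases with 136 identical (90.7%). It began at the first base of the upstream window and ended at the last base of the downstream one. The windows thus cut it, and its full length was not seen. Between the Bglap window and the Bglap3 windows the best local alignments spanned 11 to 23 columns. A match is a description of the letters only, and the arrays do not show which start was used.

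Bglap, matched by the accession NM_007541 and read by 9 probes, gave deposited intensities of 1052, 968 and 756 arbitrary units in undifferentiated replicates 1, 2 and 3. In differentiated replicates 1, 2 and 3 it gave 1748, 1521 and 1584. Undifferentiated replicate 3 was the lowest array, and the groups did not overlap. After quantile normalization the level was 9.86 ± 0.23 log2 intensity in undifferentiated and 10.67 ± 0.12 in differentiated samples (mean ± SD, n = 3 per group). The log2 fold change was 0.81 ± 0.13 SE (95% confidence interval 0.50 to 1.11; limma, Benjamini-Hochberg adjusted p = 0.00452). Over the 9 pairings of a differentiated with an undifferentiated array, the fold ran from 1.44 to 2.31.

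Bglap2, the other bone osteocalcin gene (accession NM_001032298, 9 probes), read 980, 1098 and 820 units in undifferentiated replicates 1, 2 and 3. It read 1674, 1566 and 1700 in differentiated replicates 1, 2 and 3. The differentiated arrays lay close together, and undifferentiated replicate 3 was again the lowest. Normalized levels were 9.92 ± 0.20 before and 10.69 ± 0.06 after differentiation, as log2 intensity (SD, n = 3 in each group). The log2 fold change was 0.77 ± 0.12 SE (95% confidence interval 0.50 to 1.04; limma adjusted p = 0.00304), and the 9 pairings gave folds of 1.43 to 2.05.

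Bglap3, the paralog known outside bone (accession NM_031368, 9 probes), read 806, 765 and 576 units in undifferentiated replicates 1, 2 and 3. It read 1112, 960 and 1119 in differentiated replicates 1, 2 and 3. The groups did not overlap, but differentiated replicate 2 and undifferentiated replicate 1 came within 1.18-fold of each other. Normalized levels were 9.49 ± 0.23 before and 10.05 ± 0.12 after differentiation, as log2 intensity (SD, n = 3 in each group). The log2 fold change was 0.55 ± 0.13 SE (95% confidence interval 0.26 to 0.85; limma adjusted p = 0.0215). Without differentiated replicate 1 the limma adjusted p was 0.0792 and without differentiated replicate 3 it was 0.0709, at log2 fold changes of 0.52 in both cases. With arrays weighted by their agreement with their group it was 0.33 (adjusted p = 0.0161).

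**Figure D1:**
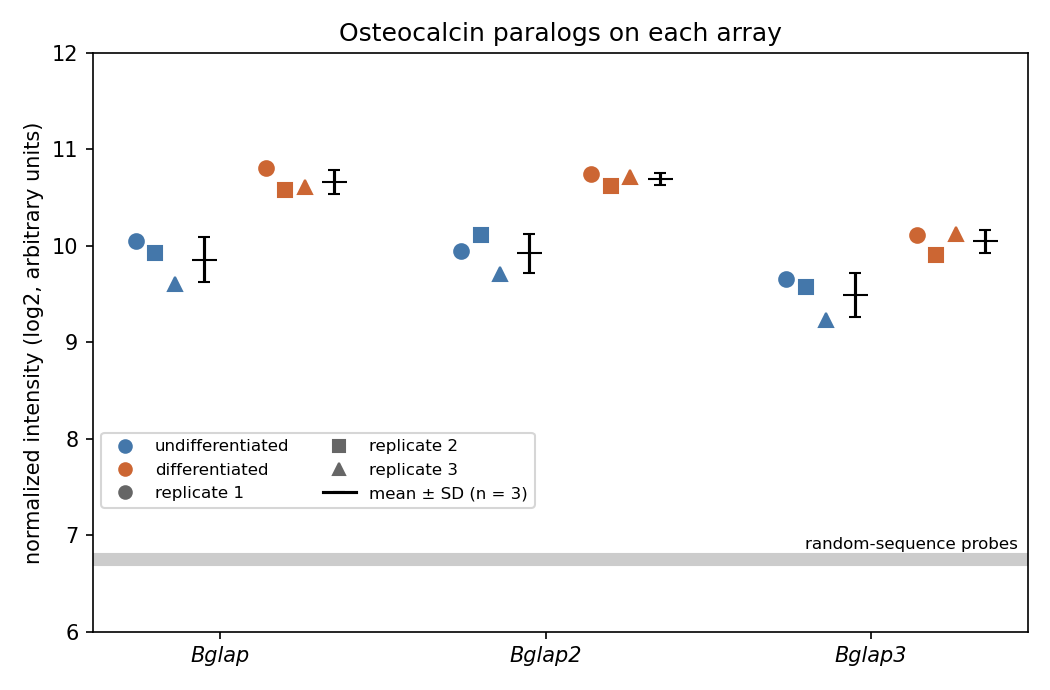
Normalized log2 intensity of the 3 osteocalcin paralogs on each of the 6 arrays, with the mean ± SD of each group (n = 3) beside the points and the level of the random-sequence probes as a grey band. Every differentiated array lies above every undifferentiated array for each gene, with undifferentiated replicate 3 the lowest and all values above the band.

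All 3 members were thus called higher, against a background of 7.96% of all probe sets called higher and 17.1% called in either direction. Whether the 3 probe sets give separate readings was not tested, since the probe sequences were not used. For groups that do not overlap, the background was 17.4% of probe sets with the differentiated arrays higher. The median log2 fold change over all probe sets was 0.00, and 2.29% of them rose by at least as much as Bglap. The only background reading on the arrays was that of the random-sequence probes, and 5.75 to 6.77% of probe sets per array lay below it, so a level above it does not by itself show expression. Against the random-sequence probes of the same array, deposited Bglap intensity was 7.47 to 9.34 times higher in undifferentiated and 14.6 to 16.0 times higher in differentiated samples. For Bglap2 these ranges were 8.11 to 9.65 and 15.1 to 16.3. For Bglap3 they were 5.70 to 7.15 and 9.24 to 10.7.

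Facts of the whole series bear on these values. The random-sequence probes, a single line made from 6131 probes, read 101 to 114 units, and array medians ran from 806 to 845. The number of arrays limits the precision. Undifferentiated replicate 3 stood apart, with a root mean square deviation from its group's mean of 0.208 log2 units against 0.0821 to 0.154 on the other arrays. Without it the log2 fold changes were 0.68 for Bglap, 0.67 for Bglap2 and 0.43 for Bglap3, and all 3 were called (limma adjusted p = 0.00213, 0.00159 and 0.0185). A number in the name of the scanner image differed between the groups. What it stands for is not stated, and it cannot be told apart from group. The value table of the series gives the arrays of differentiated replicates 1 and 2 under each other's number. The numbers used here are the title numbers of the samples under which the array files are listed. In the names of the array files, differentiated 1 and 2 are the other way round, as in the value table.

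The paralogs were then compared array by array. In the undifferentiated group replicate 3 was the lowest array for all 3 genes, and in the differentiated group replicate 2 was the lowest for all 3. Undifferentiated replicate 3 was the lowest of its group for 39.9% of all probe sets, differentiated replicate 2 for 24.7%, and both held for 10.2%. The highest array was not shared: undifferentiated replicate 1 was highest for Bglap and Bglap3 and replicate 2 for Bglap2. In the differentiated group replicate 1 was highest for Bglap and Bglap2, and replicate 3 for Bglap3. The deviations from the group mean on undifferentiated replicate 3 were -0.26 for Bglap, -0.21 for Bglap2 and -0.26 for Bglap3. Pearson's r over the 6 arrays was 0.97 between Bglap and Bglap2, 0.98 between Bglap and Bglap3 and 0.96 between Bglap2 and Bglap3. With the group means removed, r was 0.76, 0.90 and 0.83 in the same order. These values are descriptive, since the points share arrays and normalization.

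The change of Bglap3 was smaller than those of Bglap and Bglap2 on average, and no direction was settled between Bglap and Bglap2. A level of one probe set cannot be set against that of another, so only the change of their difference was tested. The difference of Bglap minus Bglap2 was 0.10, -0.19 and -0.11 log2 units in undifferentiated replicates 1, 2 and 3. It was 0.06, -0.05 and -0.10 in the differentiated ones. Here the groups overlapped, and the change was 0.03 (exact permutation test over 6 arrays, two-sided, p = 0.70). When each array was left out in turn it ran from -0.03 to 0.12, with the sign turned without undifferentiated replicate 2 or differentiated replicate 1 and the highest value without undifferentiated replicate 1.

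The difference of Bglap minus Bglap3 was 0.39, 0.35 and 0.37 in undifferentiated replicates 1, 2 and 3, and 0.69, 0.67 and 0.49 in the differentiated ones. The groups did not overlap, and the change of 0.25 corresponds to a 1.19-fold larger rise of Bglap. The difference of Bglap2 minus Bglap3 was 0.29, 0.53 and 0.47 in undifferentiated and 0.63, 0.72 and 0.59 in differentiated replicates, a change of 0.22. In both cases the exact permutation test gave p = 0.10, the smallest that 3 against 3 arrays allow, and 0.15 after adjustment over the 3 pairs of genes. The difference in rise between Bglap3 and the bone paralogs therefore did not pass a test, and at this size the test could not have passed. When each array was left out in turn, the change stayed between 0.21 and 0.32 for Bglap minus Bglap3 and between 0.15 and 0.27 for Bglap2 minus Bglap3. The probe sequences were not used here, and whether probes of one paralog also bind mRNA of another was not tested.

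**Figure D2:**
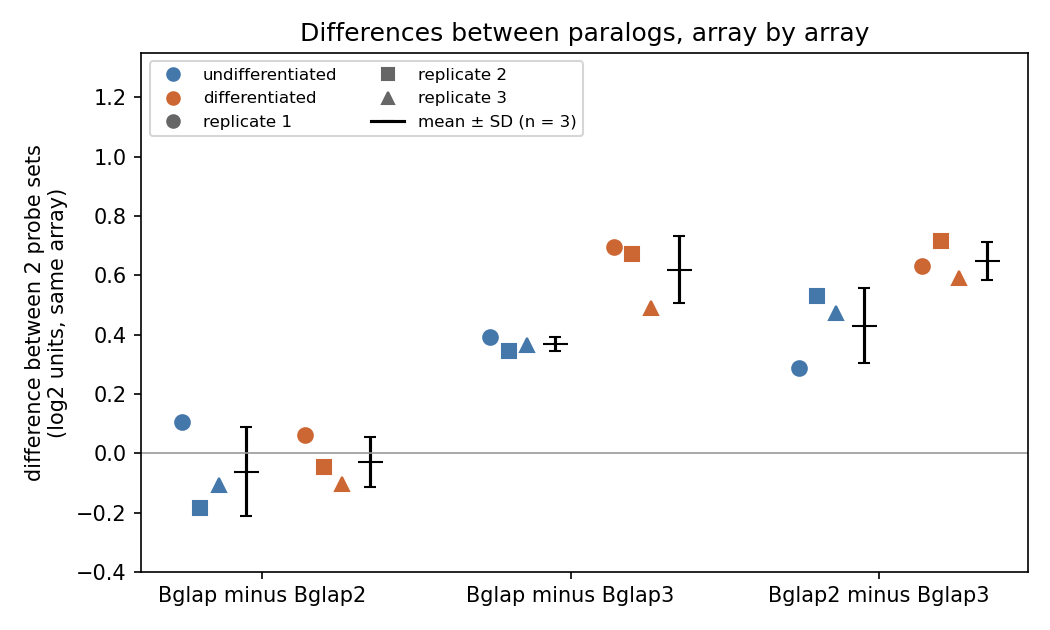
Difference in normalized log2 intensity between the probe sets of 2 paralogs on the same array, for undifferentiated and differentiated samples, with mean ± SD (n = 3). Bglap minus Bglap2 overlaps between the groups, whereas both differences from Bglap3 are higher on every differentiated array, by 0.25 and 0.22 on average. The offset from 0 carries no meaning, because levels of different probe sets are not comparable.

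The rise of Bglap and Bglap2 did not depend on 1 array or on which normalization was applied to the deposited RMA values. Values from before RMA were not used, so the effect of that step was not tested. Some of the 20 alternatives could not move the log2 fold change. Over all of them it ran from 0.62 to 0.90 for Bglap and from 0.66 to 0.87 for Bglap2. The limma adjusted p was at most 0.0226 and 0.0169. For Bglap3 the log2 fold change ran from 0.33 to 0.64, with limma adjusted p up to 0.0792.

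**Figure D3:**
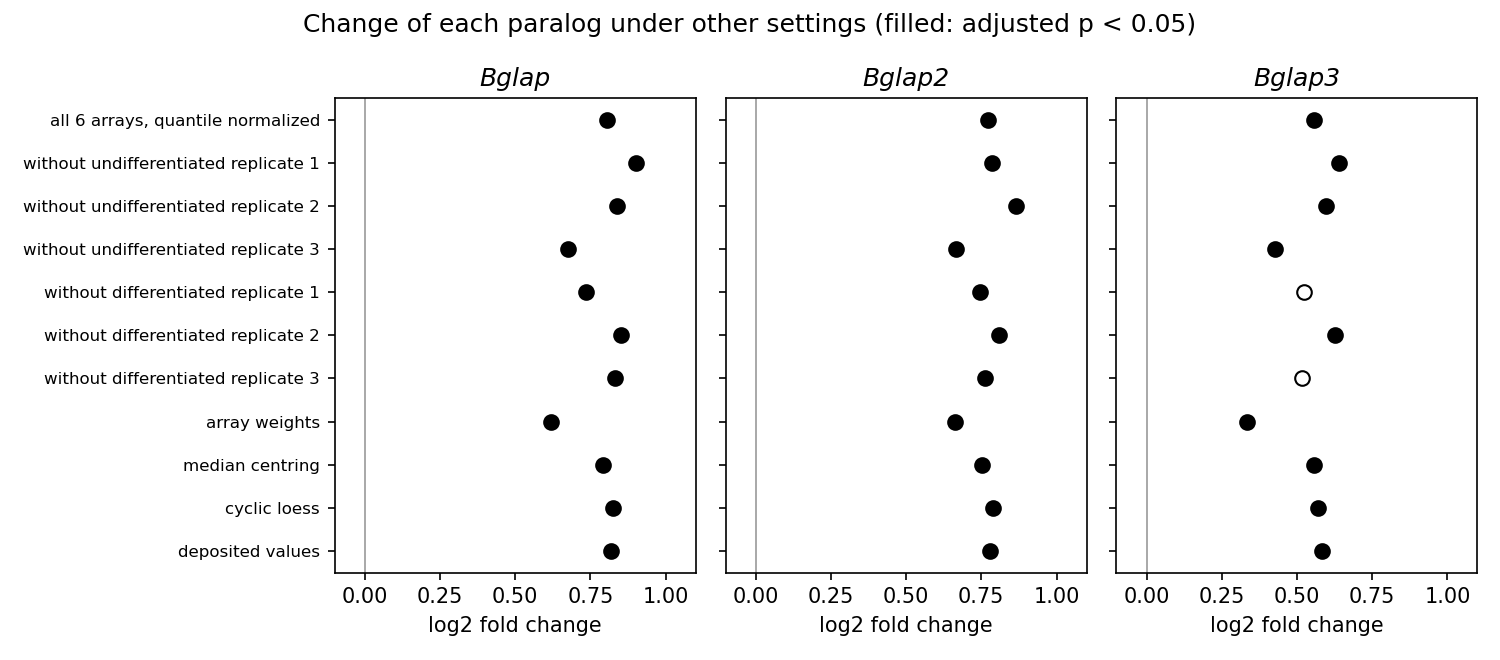
Log2 fold change of each paralog (horizontal axis) with all arrays, without each array in turn, with array weights and with other normalizations; filled points have a limma adjusted p under 0.05. Bglap and Bglap2 are filled throughout, and Bglap3 is open without differentiated replicate 1 or 3.

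Some other genes correlated with a paralog more closely than the paralogs did with each other. Among 16740 named probe sets of other genes with group means above the random-sequence probes, 84 had a higher Pearson's r with Bglap over the 6 arrays than Bglap2 had, and 68 a higher one than Bglap3. An r over 0.95 was reached by 1.55% of them for Bglap, 1.84% for Bglap2 and 0.663% for Bglap3. Closest to Bglap were the neurotrophin receptor gene Ngfr, the MHC class I gene H2-Q7, the triglyceride lipase gene Pnpla2, the keratin-associated protein gene Krtap1-5 and the calcium channel gene Orai3 (r = 0.993 to 0.998). Closest to Bglap2 were the growth factor gene Tgfb3, the scaffold gene Homer3, the olfactory receptor gene Olfr1110, the phospholipase gene Plcg2 and Kctd13 (r = 0.994 to 0.999). Closest to Bglap3 were the olfactory receptor genes Olfr993 and Olfr1420, Mettl26, Fndc5, which encodes the precursor of irisin, and Rbmy (r = 0.990 to 0.997). No gene was among the closest of more than one paralog. Of the genes named, Tgfb3, Olfr1110, Olfr993, Olfr1420, Fndc5 and Rbmy were not called. Their log2 fold changes were 0.20 to 0.34 (limma adjusted p = 0.0524 to 0.154). The other genes named were called higher. With 6 arrays in 2 groups, r takes in both the difference between the groups and the deviations within them. The share of each was not tested, and these values are descriptive.

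Markers of osteoblasts and of other cell types were read on the same arrays. Of 6 osteoblast markers (Runx2, Sp7, Col1a1, Col1a2, Alpl and Ibsp), Sp7 and Alpl rose. The summed level of all 6 was 16.9 to 17.0 log2 intensity before and 17.0 to 17.1 after differentiation. Sums here were taken on the linear scale, so they mostly follow their highest members and say little about the others. For osteoblasts these were Col1a1 and Col1a2, with means of 15.8 to 15.9, whereas Alpl went from 9.56 to 12.6. Each of the 6 osteoblast markers read above the random-sequence probes on every array. So did the muscle markers Myod1, Myog and Ckm and the adipocyte markers Adipoq and Fabp4, so that this reading does not tell the cell types apart. The summed level of 6 adipocyte markers was 11.0 to 11.2 and 11.1 to 11.2, with Adipoq lower and 0 higher by limma (1 at an unadjusted p under 0.05). For 6 chondrocyte markers it was 12.7 to 12.9 before and 12.9 on every array after, with Comp higher. For 5 measured muscle markers it was 11.8 to 12.2 and 12.0 to 12.4, with Des higher. For 6 measured macrophage and osteoclast markers it was 11.3 to 11.5 before and 11.4 to 11.5 after, and limma called 0 of them (0 also at an unadjusted p under 0.05), with Dcstamp not above the random-sequence probes on any array. For 5 endothelial markers it was 10.7 to 10.9 before and 11.2 on every array after, with Tek and Pecam1 higher and Cdh5 not above the random-sequence probes on any array. The part of the markers that moved in the rise of osteocalcin was not tested.

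Part of the list of late osteoblast matrix genes rose beside osteocalcin, several genes by more. Of 16 measured, 8 rose and 0 fell by limma (0 also at an unadjusted p under 0.05), which is 50% called, against 16.8% of genes with a symbol called in either direction (8.67% higher and 8.16% lower), with a median log2 fold change of 0.42 against 0.01. The largest rises were those of Alpl, the phosphatase that frees phosphate for mineral (3.02 ± 0.09 SE on the log2 scale), and Dmp1, an acidic matrix protein of osteocytes (2.96 ± 0.16). They were followed by the parathyroid hormone receptor gene Pth1r (1.69), the phosphatase gene Phospho1 (1.31) and the secretory kinase gene Fam20c (1.26). The 2 smallest of the 8 rises, Ank and Enpp1, lost their calls in 4 of the 6 fits that left out an array. The paralogs' log2 fold changes of 0.55 to 0.81 lay above those of Ank (0.42) and Enpp1 (0.49) and below the 1.18 of Omd, a matrix proteoglycan, without a test of these differences. Ibsp, which encodes bone sialoprotein, had one of 0.41 and did not pass (limma adjusted p = 0.183). Also without a call were Spp1 (-0.10), Mepe (0.07), Col1a1 (0.05), Col1a2 (0.04), Sparc (0.14) and Bgn (0.03). The same held for Phex (0.23), which was not above the random-sequence probes on any array. Mean levels of Col1a1, Col1a2, Sparc and Bgn were 15.4 to 15.9 log2 intensity in both groups. Whether the array signal could still rise at that level was not tested, so a missing call does not show that their mRNA was unchanged. Dmp1 and Omd are the matrix proteins among the genes called.

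Genes listed here as regulators of the osteocalcin gene moved both ways. Among the 35 with a probe set there were 9 that rose, 6 that fell and 20 without a call (42.9% called, against 16.8% of genes with a symbol, 8.67% higher and 8.16% lower), with a median log2 fold change of -0.08 against 0.01. Runx2 differed by 0.02 ± 0.09 SE (adjusted p = 0.920) and the vitamin D receptor gene Vdr by 0.11 ± 0.11 (limma adjusted p = 0.573). Lef1, a transcription factor of the Wnt pathway, rose by 0.97 ± 0.10 and the AP-1 gene Fos by 0.84 ± 0.16. Sp7, which encodes the osteoblast factor osterix, rose by 0.52 ± 0.10. Fosl1, an AP-1 partner, changed by -1.35 ± 0.10, Twist1, a basic helix-loop-helix factor that restrains RUNX2, by -0.97 ± 0.17, and Rxra, which encodes a partner of the vitamin D receptor, by -0.96 ± 0.19. Dlx5, a homeobox activator of osteoblast genes, changed by -0.68 ± 0.14, a call lost without undifferentiated replicate 1 or differentiated replicate 2 (limma adjusted p up to 0.0666). The 9 rises numbered 5 without undifferentiated replicate 1, differentiated replicate 1 or differentiated replicate 3, and 4 without differentiated replicate 2. They also numbered 5 with the deposited values or with median centring.

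The carboxylation of osteocalcin needs vitamin K, and the genes of that step and of other Gla proteins were measured too. Among the 20 with a probe set there were 5 that rose, 2 that fell and 13 without a call (35% called, median log2 fold change 0.00, against 16.8% called and a median of 0.01 over genes with a symbol). Ggcx, the carboxylase itself, had a log2 fold change of 0.42 ± 0.13 SE and did not pass (limma adjusted p = 0.0610), although its groups did not overlap. Vkorc1, the vitamin K epoxide reductase, differed by 0.02 ± 0.09 (adjusted p = 0.922), and its paralog Vkorc1l1 fell by 0.54. Among the Gla proteins F7, coagulation factor VII, rose by 2.19 ± 0.12 and Ucma, the Gla-rich protein of cartilage, by 1.97 ± 0.15. Gas6, a ligand of the TAM receptor kinases, rose by 0.53. Mgp, matrix Gla protein, an inhibitor of mineralization, changed by -1.13 ± 0.10. The 5 rises numbered 3 without undifferentiated replicate 2 or any 1 differentiated array, and 3 with the deposited values or median centring. Nqo1 and Postn lost their calls in 5 of the 6 fits that left out an array.

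Genes that process osteocalcin, sense it or act on its release were measured for 13 of 16 names. Of these 2 rose, 3 fell and 8 did not pass (38.5% called, median log2 fold change 0.00, against the same 16.8% and 0.01 over genes with a symbol). Ctsk, the collagen-degrading protease cathepsin K, had a log2 fold change of 0.98 ± 0.08 SE, and Galnt1, which starts O-linked glycans, one of 0.66 ± 0.11. Ptpn1, a phosphatase of the insulin receptor, changed by -0.56 ± 0.10, Pcsk7, a proprotein convertase, by -0.51 ± 0.11 and Tcirg1, a proton pump subunit, by -0.41 ± 0.10. The call of Tcirg1 was lost in 5 of the 6 fits that left out an array. Gprc6a, a proposed osteocalcin receptor, read 8.27 and 8.31 log2 intensity before and after differentiation (limma adjusted p = 0.865). Ptprv was not analysed here.

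**Figure D4:**
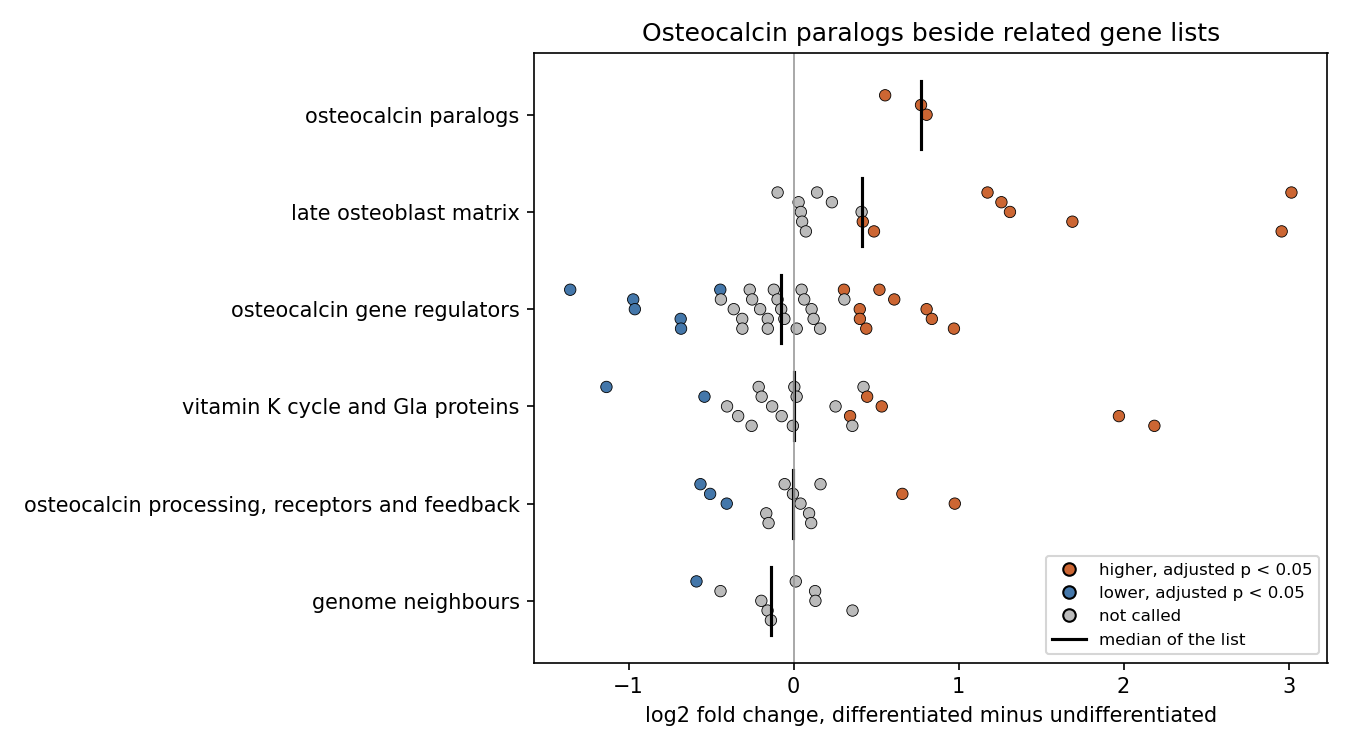
Log2 fold change (horizontal axis, differentiated minus undifferentiated) of the 3 osteocalcin paralogs and of each measured gene of 5 related lists, coloured by call, with a line at each list's median. The paralogs lie at 0.55 to 0.81, and the other lists spread to both sides of 0. The list named late osteoblast matrix reaches 3.02 with the phosphatase gene Alpl and also holds genes that do not encode matrix proteins.

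The genes that flank the osteocalcin cluster were called at a share near the background. Of the 5 nearest protein-coding genes with a symbol on each side, 9 were measured, of which 0 rose and 1 fell by limma (11.1% called, against 16.8% of genes with a symbol, 8.67% of them higher). Their median log2 fold change was -0.14. At an unadjusted p under 0.05 it was 1 and 2, and with array weights 1 and 3 were called. Pmf1, a kinetochore gene on the Bglap side of the cluster, changed by -0.59 ± 0.11 SE (limma adjusted p = 0.00789), a call lost without differentiated replicate 2 (adjusted p = 0.0517). Its neighbours on that side were Slc25a44 (0.13), the semaphorin gene Sema4a (0.36, limma adjusted p = 0.0556), the lamin gene Lmna (-0.16) and Mex3a (-0.44, adjusted p = 0.0519). On the Bglap3 side, Paqr6 (-0.14), Tmem79 (0.01), Glmp (0.13) and the chaperonin gene Cct3 (-0.20) did not pass, and Smg5 was not analysed here. The largest positive change among these neighbours, 0.36 for Sema4a, lay below the 0.55 of Bglap3. Whether the paralogs differ from their neighbours was not tested.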

How the data were processed

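Cy3-labelled material from the RNA of 6 samples was measured on NimbleGen arrays of 1 colour. The deposited values are intensity values on a linear scale that the authors made with RMA, per the submitters' processing notes, with 1 value per probe set of 9 probes in most cases. The version and the design build are not given in the sources used here. Values were put on the log2 scale and quantile normalized, since sorted values of 2 arrays differed by a median of up to 0.135. Probe sets were named by transcript accession (17849) or symbol and synonym (130) through a RefSeq gene table of GRCm38.p6, used for names and gene order only. For genes with several probe sets, the one with the highest mean stood for the gene in the lists. All 42586 probe sets, without the control line, were fitted by group, without covariates, using lmFit and eBayes of limma 3.58.1 under R 4.3.3 (two-sided, Benjamini-Hochberg, threshold 0.05), with no filter on low values. The limma model alone was run on simulated data.

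The members, the lists and the tests were chosen with earlier results of these data known. The text names all members, up to 5 called genes with the largest change per list, every neighbour, 8 genes of osteocalcin biology, and the 5 genes with the highest Pearson's r with each member. Ibsp, Omd, Vkorc1, Ank, Enpp1, Nqo1 and Postn were named after their values were seen. So were Spp1, Mepe, Col1a1, Col1a2, Sparc, Bgn and Phex in the late matrix list. Predicted Gm genes were not taken as neighbours. The alternatives concerned normalization, filters, probe sets per gene, variance model, array weights, an offset of 50, a block for the replicate numbers, a stricter threshold of 0.01, and each array left out. A random block for the number in the scanner image name was not fitted, because each of the 2 numbers held 1 group only.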

Additional observations from a re-analysis of the deposited data

How the results depend on the processing

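Over 20 alternatives each, Bglap and Bglap2 kept their direction and their call, and Bglap3 kept its direction. Several of these could not move the log2 fold change, so they bear on the call only. They are the filters, the probe sets per gene, the variance model, the replicate blocks and the stricter threshold. The value table of the series could change neither. At an adjusted p under 0.01 Bglap3, at 0.55, was not called, and without 1 array its log2 fold change ran from 0.43 to 0.64, with 2 calls lost. The 11 alternatives for each difference between paralogs moved it by less than the larger of the 2 groups' SDs, but without any 1 differentiated array Bglap minus Bglap3 (0.21 to 0.32) moved by more than the undifferentiated SD of 0.02, and without undifferentiated replicate 1 Bglap2 minus Bglap3 (0.15) by more than the differentiated SD of 0.06. Bglap minus Bglap2 ran from -0.03 to 0.12 without 1 array. With the deposited values or median centring, 5 regulators and 3 vitamin K and Gla genes were called higher, and at an adjusted p under 0.01 there were 4 and 3, with 1 processing gene lower. Array weights called 12 regulators, 6 vitamin K and Gla genes and 3 neighbours lower, and 1 neighbour higher. Without 1 array the regulators called higher ran from 4 to 8, the vitamin K and Gla genes from 3 to 6, neighbours higher from 0 to 1 and neighbours lower from 0 to 1. Without probe sets under the 25th percentile 2 neighbours were lower. Over all probe sets, 3388 were higher and 3875 lower. These counts were 7699 and 8381 with array weights, and 1630 and 1608 at an adjusted p under 0.01. Without 1 array they ran from 1594 to 4613 and from 1610 to 4938, the lowest of both without differentiated replicate 2 and the highest without undifferentiated replicate 3. The cause was not tested. Same-numbered samples deviated together with correlations of 0.33, -0.14 and 0.46 by title number and -0.01, 0.43 and 0.46 by file-name number, so the numbers were not taken as pairs. With the replicate block 1 neighbour was higher and 2 lower under both numberings, and by file name 4 vitamin K and Gla genes and 5835 probe sets were lower. The block changed no call of the paralogs. The value table of the series holds the same values as the array files. The 3 arrays per group limit the precision.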
